A study of Mus musculus with 8 samples.

Results

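Type I alveolar epithelial cells (AECI) from fetal mouse lungs carrying a floxed Fgfr2b allele were compared with AECI from control fetuses, over every gene on the array. Fgfr2b is the epithelial splice form of the receptor Fgfr2, and the series concerns the loss of its signalling in Sftpc-expressing cells. The differences rest on 4 of the 8 arrays of the series, 2 from experimental AECI and 2 from control AECI. The other 4 arrays hold type II cells (AECII) of the same genotypes. The main fit used all 8 arrays, so that its SE, intervals and p-values draw on the spread between AECII replicates too. Tamoxifen was given to all the dams at E14.5 and again at E15.5, and AECI were isolated by FACS at E18.5. Experimental and control fetuses came from separate females, so that genotype and litter cannot be told apart. The sources used here do not give the control genotype, the Cre line, the floxed exon, the sort gate or the number of fetuses per sample. The design text calls the 2 samples of a group biological replicates without saying that they were separate animals, and every p-value below reflects only how far these samples lay from each other.

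AECI are the thin, flat cells that form most of the gas exchange surface, and AECII produce surfactant. Both arise from distal epithelial progenitors in the fetal lung. The FGF10 ligand made by the mesenchyme acts on Fgfr2b in those progenitors, where the receptor signals through RAS and ERK and induces feedback genes such as Spry2, Dusp6 and Etv5. A cell that becomes AECI leaves the cell cycle and turns on genes for water and ion transport, basement membrane, caveolae and a broad actin cortex.

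Signal was measured on a log2 scale, with 1 array per sample, for 24306 genes, each by its brightest probe. A difference is always experimental minus control, on that scale. Of these genes, 13606 had a mean over the 4 AECI arrays above 5.18, the median over all spots, and the gene groups below are described over their members above that level. The labelled cell type was checked against its markers: 8 AECI markers averaged 13.2 and 13.1 in experimental AECI, against 13.67 and 13.501 in control AECI. AECII markers were nearly as bright (7 markers, 12.9 and 13.0 in experimental AECI, against 12.8 and 12.9 in control AECI). The 3 leukocyte markers averaged 3.87 and 4.47 against 4.21 and 3.81, an average below the median spot, though 1 of the 3 lay above it. Markers of other cell types are given further below. AECI control replicate 1 had the male pattern of sex-linked transcripts, with Xist at 3.96 against 13.4 to 13.6 on the other AECI arrays. Several class medians are therefore given without this array too, while the counts of class members keep it.

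By limma with Benjamini-Hochberg adjustment over all genes, 1 gene passed an adjusted p of 0.05. It was Alas2, which fell in experimental AECI (0.00411% of genes were called lower and 0.0% higher). At an unadjusted p under 0.05 there were 3022 genes, and of the genes above the median spot 7.13% were higher and 4.82% lower at that level. When the variance prior was allowed to follow the mean signal, called a variance trend here, 40 genes rose (0.165%) and 34 fell (0.14%), of which 34 and 34 lay above the median spot (0.25% each). Experimental replicates correlated at r = 0.960 across genes and control replicates at 0.951, against 0.946 to 0.955 between an experimental and a control array. The description therefore leads with what gene classes did, as counts and medians beside those of all genes, and no test was run on a class.

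A pair of arrays on each side overlaps or does not, and this was used as a plain count. Among the 13606 genes, both experimental arrays were above both control arrays in 23.2% and below both in 20.6%. Without AECI control replicate 1, when a single control array remains, these shares were 38.9% and 36.0%. The median difference of these genes was 0.03. Dim genes ran higher and bright genes lower in experimental AECI: over 4 bins of equal size by mean signal, the median difference was 0.13, 0.08, 0.02 and -0.02 from the dimmest to the brightest. The shares higher and lower without overlap were 23.4% and 14.8% in the dimmest bin, 25.3% and 16.995% in the second, 24.2% and 22.1% in the third and 20.1% and 28.6% in the brightest. Each class is given beside the shares of the bin that holds its median level. The table has no detection call, and a value below the median spot may lie at background, so that a difference from such a value has no sure size.

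**Figure D1:**
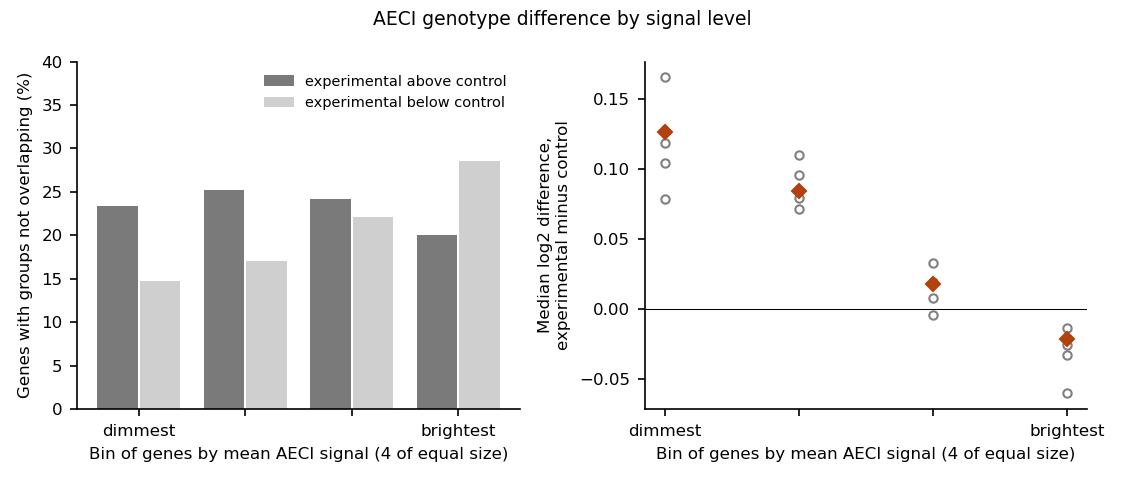
Left, share of genes (%) whose experimental arrays lay all above (dark bars) or all below (light bars) the control arrays, over 4 bins of equal size by mean AECI signal. Right, median log2 difference, experimental minus control, by bin (diamond, from group means; circles, from the 4 pairs of 1 experimental and 1 control array). The share lower was 14.8% in the dimmest bin and 28.6% in the brightest.

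Genes of mitosis had the highest median of the 62 classes examined. This class holds mitotic cyclins and kinases, kinetochore and condensin subunits and spindle motors. Of 59 members on the array 42 were above the median spot, and 28 of these had both experimental arrays above both controls, with 1 below (66.7% and 2.4%, beside 25.3% higher and 16.995% lower among all genes of the second bin). In 5 of the 42 the control mean was below the median spot. Their median difference was 1.002, and over all 59 members it was 0.999. Each of the 4 pairs of 1 experimental and 1 control array gave a positive median, between 0.58 and 1.30. The median deviation of members from their own mean over the 4 arrays was 0.22 and 0.66 in experimental AECI, against -0.54 and -0.30 in control AECI.

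Ncapg, a condensin subunit, read 6.57 and 7.17 in experimental AECI, against 5.13 and 5.03 in control AECI. Ccna2, the cyclin of S phase and G2, read 7.46 and 8.56 against 5.97 and 5.78, and Cenpa, the histone H3 variant of centromeres, 6.28 and 6.68 against 4.92 and 3.88. Birc5 (survivin), which guides chromosome segregation and cytokinesis, was brighter, at 10.9 and 11.2 in experimental AECI, against 8.79 and 9.86 in control AECI. In each of these genes both experimental arrays were above both controls, and the control means of Ncapg and Cenpa lay below the median spot. Differences were 1.79 for Ncapg (SE 0.30), 2.13 for Ccna2 (SE 0.39), 2.08 for Cenpa (SE 0.48) and 1.75 for Birc5 (SE 0.39), with limma adjusted p between 0.217 and 0.254. With a variance trend Birc5 rose (adjusted p = 0.0385). Mki67, a marker of cycling cells, read 10.4 and 11.05 against 9.58 and 9.90, a difference of 0.99 (SE 0.30, adjusted p = 0.299). The single member lower without overlap was Incenp, a scaffold of the chromosomal passenger complex, at -0.70, named after its value was seen. Nek2, a centrosomal kinase outside the class and named for the same reason, read 6.14 and 5.70 against 1.79 and 3.35 and rose with a variance trend (adjusted p = 0.043), from control values below the median spot.

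The mitosis class was less sharply different among bright members and on other probes. Members above the upper quartile of all spots had a median of 0.53, and the second brightest probes gave 0.34 over the whole class and 0.61 over the 18 members whose second probe was also above the median spot, 12 of them positive. In AECII the members' median difference was 0.27, and 29 of 42 were positive. The difference between the cell types passed for 0 genes, as tested by limma on the interaction (2095 genes of all at an unadjusted p under 0.05, and 0 past the threshold with a variance trend).

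Mitotic promoters are known for the CCAAT box and the cell cycle homology region (CHR). Through the CHR, cell cycle genes are held silent in resting cells. The sequences before 3 of the mitosis genes were searched for both elements. The 200 bases before the RefSeq start are given 5′ to 3′ on the plus strand of build GRCm38.p6. Each CCAAT box is in capitals, read on either strand, and so is each CHR. The CHR was searched as TTTGAA on both strands, and a variant of it with C at the third base was searched too.
Ncapg, chr5:45669725-45669924: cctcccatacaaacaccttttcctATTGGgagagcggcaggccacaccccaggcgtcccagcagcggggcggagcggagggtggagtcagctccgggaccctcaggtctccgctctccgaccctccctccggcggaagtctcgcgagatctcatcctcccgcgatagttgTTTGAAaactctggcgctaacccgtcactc
Cenpa, chr5:30666686-30666885: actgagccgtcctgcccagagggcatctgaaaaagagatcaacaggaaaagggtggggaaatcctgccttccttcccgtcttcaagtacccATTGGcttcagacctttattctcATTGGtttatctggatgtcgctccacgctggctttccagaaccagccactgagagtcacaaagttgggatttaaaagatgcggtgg
Birc5, chr11:117849037-117849236: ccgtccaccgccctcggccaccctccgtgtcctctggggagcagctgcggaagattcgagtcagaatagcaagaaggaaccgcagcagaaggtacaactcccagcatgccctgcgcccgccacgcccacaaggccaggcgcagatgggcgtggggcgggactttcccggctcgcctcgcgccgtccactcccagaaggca
Ncapg held both elements, Cenpa 2 CCAAT boxes and Birc5 neither in this window. Of the 42 members above the median spot, 35 matched a promoter, of which 28 held a CCAAT box and 15 (42.9%) a CHR. Of all 27020 promoters of that length, 8111 (30.02%) held the first and 3688 (13.6%) the second. Both elements stood together in 14 of the 35, and in 1127 of all promoters (4.17%). A match of letters is a description and not a site shown to be used.

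Genes of DNA replication went the same way with smaller values. Of 36 members above the median spot (44 on the array), 15 were higher and 2 lower without overlap (41.7% and 5.6%, beside 25.3% higher and 16.995% lower among all genes of the second bin), and the median difference was 0.39. Mcm2, a subunit of the replicative helicase, read 7.10 and 7.69 in experimental AECI, against 6.08 and 4.79 in control AECI. Uhrf1, which carries DNA methylation through replication, read 7.67 and 9.28 against 5.52 and 6.99. Both genes were non-overlapping, at differences of 1.96 (SE 0.49) and 2.22 (SE 0.69), with adjusted p of 0.262 and 0.308. Dut, which keeps uracil out of DNA, differed by 1.05 on its brightest probe and by -1.18 on its second, so that no direction is given for it.

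Replication-dependent histones, which are made in S phase, were higher without overlap in 26 of 37 members and lower in 0 (70.3% and 0.0%, beside 20.1% higher and 28.6% lower among all genes of the brightest bin), and their median difference was 0.48. H2bc14 read 12.3 and 12.3 in experimental AECI, against 11.3 and 11.7 in control AECI, and H3c14 read 7.49 and 8.04 against 4.67 and 5.94. The differences were 0.85 (SE 0.25) and 2.46 (SE 0.52), with adjusted p of 0.3 and 0.242. AECI control replicate 1 was the lowest of the 4 arrays in this class, at a median deviation of -0.47 against -0.03 in control replicate 2. The class median was 0.27 without control replicate 1 and 0.73 without control replicate 2. Histone genes are near-identical copies, and a probe may read several of them.

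The class of D cyclins and cell cycle inhibitors, which holds genes that drive the cycle and genes that restrain it, had a negative median of -0.31. Of 19 members 4 were higher and 9 lower without overlap (21.1% and 47.4%, beside 24.2% higher and 22.1% lower among all genes of the third bin). Cdkn1b (p27), an inhibitor of cyclin-dependent kinases, read 8.94 and 8.88 in experimental AECI, against 9.98 and 9.80 in control AECI. Rb1, the retinoblastoma protein that restrains S phase genes, read 7.77 and 8.29 against 9.26 and 9.75. Both were below both controls, with differences of -0.98 for Cdkn1b (SE 0.22, adjusted p = 0.254) and -1.47 for Rb1 (SE 0.41, adjusted p = 0.283). Ccnd1, the cyclin D1 of G1 phase and a target of growth factor signalling, read 8.69 and 7.92 against 6.73 and 7.13, a difference of 1.37 (SE 0.34, adjusted p = 0.261). Cdkn2c (p18), an inhibitor of the D cyclin kinases, was higher, at 0.79 (SE 0.22, adjusted p = 0.287).

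**Figure D2:**
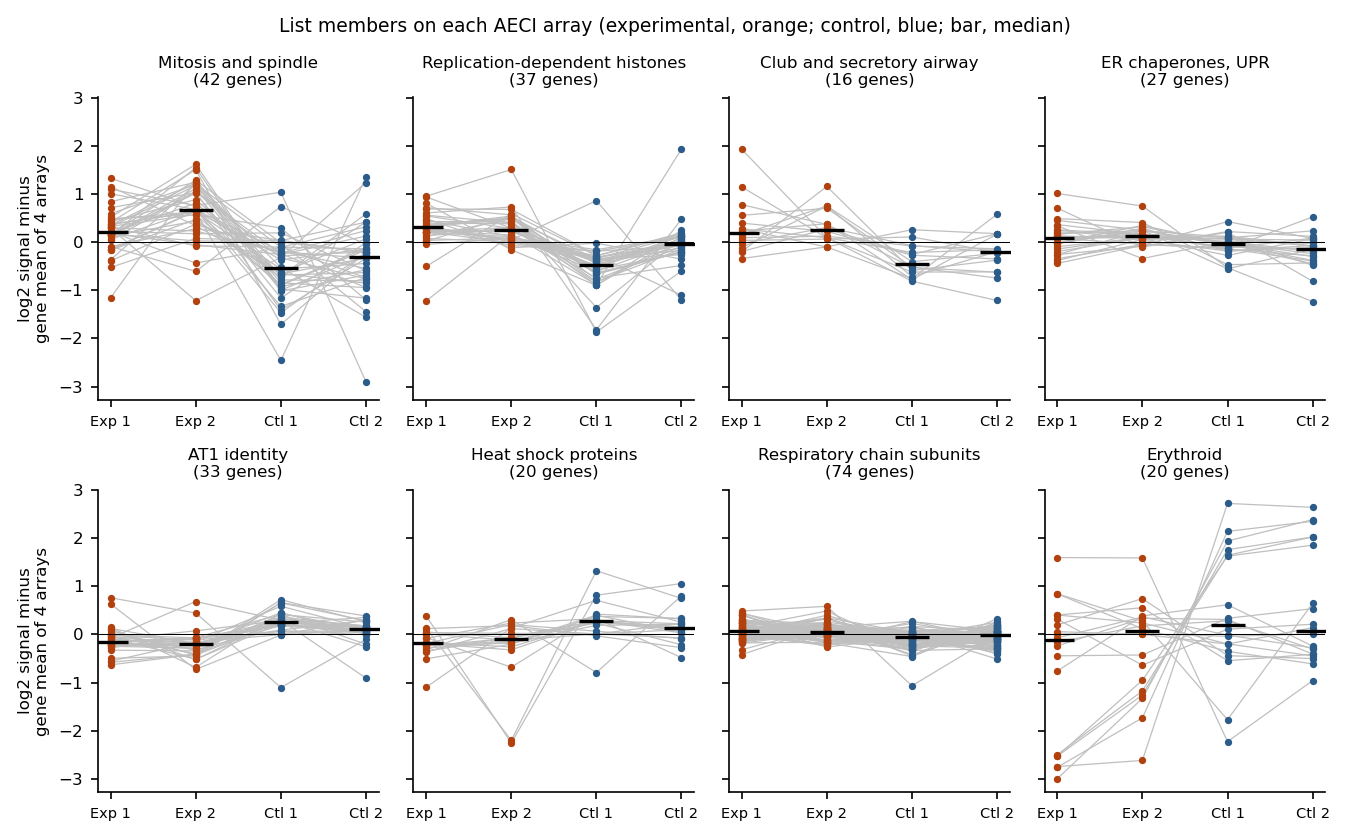
Members of 8 gene classes above the median spot on each AECI array, as log2 signal minus the gene's mean over the 4 arrays. Each grey line is a gene, the bar is the class median, and experimental arrays (orange) stand left of control arrays (blue). Mitosis members had medians of 0.22 and 0.66 in experimental AECI, against -0.54 and -0.30 in control AECI, and AT1 identity members -0.15 and -0.19 against 0.26 and 0.10.

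Markers of AECI read lower in experimental AECI, most by small amounts. Of 33 genes of AECI identity (AT1 identity) above the median spot (34 on the array), 25 were lower without overlap and 1 higher (75.8% and 3.0%). The shares were 20.1% higher and 28.6% lower among all genes of the brightest bin. The median difference was -0.35, and the 4 array pairs gave -0.48 to -0.20. Of 18 members with a second probe above the median spot, 1 was positive there, and their median was -0.54. In AECII the class median was -0.18.

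Aqp5, the water channel of the AECI apical membrane, read 13.01 and 13.1 in experimental AECI, against 14.2 and 13.8 in control AECI. Sema3a and Sema3b, secreted guidance ligands, read 9.86 and 10.1 against 11.1 and 10.9 for Sema3a and 9.89 and 10.1 against 11.2 and 10.7 for Sema3b. All 3 genes were non-overlapping and lower, with differences of -0.94 for Aqp5 (SE 0.27), -1.05 for Sema3a (SE 0.24) and -0.99 for Sema3b (SE 0.26). None passed, with limma adjusted p between 0.256 and 0.296. The best known markers gave smaller values: Hopx differed by -0.23 (95% interval -0.89 to 0.42), Pdpn by -0.44 (-1.33 to 0.46) and Ager by -0.08 (-0.60 to 0.44). The member higher without overlap was Igfbp2, a secreted IGF binding protein of late AECI, at 8.09 and 7.78 against 6.23 and 7.23.

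Classes tied to the flat shape of AECI leaned the same way. Of 47 actin, caveolar and annexin genes, 20 were lower and 4 higher without overlap (42.6% and 8.5%, beside 20.1% higher and 28.6% lower among all genes of the brightest bin), at a median of -0.12, and -0.18 without experimental replicate 1 and -0.07 without experimental replicate 2. In this class Cavin2, a coat protein of caveolae, read 13.4 and 13.4 in experimental AECI, against 14.2 and 13.8 in control AECI. Targets of YAP and TAZ, the effectors of cell stretch, were lower in 9 of 22 and higher in 2 (median -0.26, beside 24.2% higher and 22.1% lower among all genes of the third bin). Of the 6 targets with a second probe above the median spot, 3 were positive there, and their median was 0.01. F3, tissue factor, read 12.1 and 11.9 against 13.1 and 13.05 and fell with a variance trend (difference -1.05, SE 0.16, adjusted p = 0.0232, or 0.26 without the trend). Among 9 keratins, 6 were lower and 2 higher (the same bin as actin genes), with Krt8, the main keratin of simple epithelium, at 12.49 and 12.7 against 13.2 and 13.2. Vegfa, the angiogenic factor that AECI secrete, read 14.8 and 14.7 against 15.4 and 15.2, a difference of -0.53 (SE 0.24, adjusted p = 0.441).

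The basement membrane class held members on both sides. Over 23 members the median was -0.24, with 11 lower and 5 higher without overlap (47.8% and 21.7%, beside 20.1% higher and 28.6% lower among all genes of the brightest bin). It was -0.09 without experimental replicate 2 and -0.15 without control replicate 1. Collagen IV and laminin chains were among those lower, with Col4a1 at -0.36, Col4a2 at -0.40, Lama5 at -0.43 and Lamb2 at -0.45, which were named after their values were seen. Nid1, the nidogen that links collagen IV to laminin, read 9.67 and 9.48 in experimental AECI, against 8.27 and 8.67 in control AECI. Frem2, a matrix protein of epithelial basement membranes, read 10.2 and 10.4 against 9.41 and 9.15, and Lamb1 9.27 and 9.82 against 9.03 and 8.75. These were above both controls, with differences of 1.11 (SE 0.32), 1.02 (SE 0.25) and 0.65 (SE 0.28), and adjusted p between 0.26 and 0.412.

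AECII markers did not lean either way. Of 33 members 9 were higher and 7 lower without overlap (27.3% and 21.2%, beside 20.1% higher and 28.6% lower among all genes of the brightest bin), and the median was 0.09, or -0.02 when arrays were centred on their median over genes. Sftpc, which encodes surfactant protein C, read 15.47 and 15.6 in experimental AECI, against 15.53 and 15.4 in control AECI. Sftpb differed by 0.05 (95% interval -0.65 to 0.75). Lpcat1, an acyltransferase of surfactant lipid, was higher without overlap at 12.04 and 12.2 against 11.51 and 11.6, and Hc, complement C5, lower at 11.7 and 11.9 against 12.4 and 12.2.

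Heat shock proteins were among the lowest classes. Of 20 members, 12 were lower and 2 higher without overlap (beside 20.1% higher and 28.6% lower among all genes of the brightest bin), with a median of -0.38 and array pairs from -0.44 to -0.21. Hspb8, a small chaperone, read 12.2 and 12.48 in experimental AECI, against 13.1 and 13.02 in control AECI. Cryab, another, read 13.9 and 13.8 against 14.3 and 14.2, and Hsp90aa1, the inducible form of HSP90, 11.4 and 11.3 against 11.9 and 11.8. Their differences were -0.71 (SE 0.26), -0.43 (SE 0.22) and -0.51 (SE 0.22), with adjusted p between 0.353 and 0.483. Hspa1a and Hspa1b, the inducible HSP70 genes, had 1 array apart: they read 13.1 and 10.4 against 13.505 and 13.7 for Hspa1a and 12.1 and 9.80 against 13.3 and 12.7 for Hspa1b, with experimental replicate 2 the lowest for both. They share most of their sequence and were named after their values were seen. Without experimental replicate 2 the class median was -0.41. The AECII median was -0.04.

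Other chaperone classes leaned the other way. In the endoplasmic reticulum class 16 of 27 members were higher and 3 lower without overlap (59.3% and 11.1%, beside 20.1% higher and 28.6% lower among all genes of the brightest bin), at a median of 0.24 on the brightest probes and -0.05 on the second brightest. It was 0.14 without control replicate 2. Sdf2l1, a luminal co-chaperone, read 11.502 and 11.2 in experimental AECI, against 9.96 and 9.26 in control AECI, and rose with a variance trend (difference 1.76, SE 0.25, adjusted p = 0.0158, or 0.232 without). Pdia4, a disulfide isomerase, read 9.59 and 9.51 against 8.63 and 8.67, and Hyou1, a chaperone of the same compartment, 9.85 and 9.64 against 9.35 and 9.09. In AECII the class median was 0.42, and Sdf2l1 differed by 1.37. Of 14 chaperonin and prefoldin subunits, which fold new proteins, 8 were higher and 0 lower (the same bin), at a median of 0.18. Pfdn6, a prefoldin subunit, read 10.1 and 9.97 against 9.40 and 8.80.

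Mitochondrial classes had small positive medians. Of 74 respiratory chain subunits 28 were higher and 4 lower without overlap (37.8% and 5.4%, beside 20.1% higher and 28.6% lower among all genes of the brightest bin), with a median of 0.11, which became -0.002 when arrays were centred on their median over genes. It was 0.07 without control replicate 1. Mitochondrial ribosomal proteins (75 members) had a median of 0.16, and 0.09 without experimental replicate 1, with 23 higher and 5 lower (30.7% and 6.7%, beside 24.2% higher and 22.1% lower among all genes of the third bin). Of 24 enzymes of the tricarboxylic acid cycle 10 were higher and 0 lower (the same bin), at a median of 0.16, and 0.33 without control replicate 2. Mrps10, of the small mitochondrial ribosomal subunit, read 10.01 and 9.21 in experimental AECI, against 8.51 and 8.52 in control AECI. Sdhc, a membrane anchor of succinate dehydrogenase, read 11.9 and 11.8 against 11.3 and 11.3. Neither passed, at differences of 1.10 (SE 0.32) and 0.52 (SE 0.23) and adjusted p of 0.297 and 0.424. In AECII 71 of the 74 respiratory chain subunits were positive, with a median of 0.26.

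Cytosolic ribosomal proteins and proteasome subunits had medians near that of all genes, while ribosome biogenesis factors stood higher. Cytosolic ribosomal proteins (72 members) had a median difference of 0.04 and proteasome subunits (40 members) of 0.06, and these became -0.08 and -0.06 when arrays were centred. Centring put the median of all genes at -0.08, against 0.04 as deposited, and other class medians shift by a like amount. Without overlap, 17 of the 72 ribosomal proteins were higher and 8 lower, and 11 of the 40 proteasome subunits were higher and 4 lower. Among all genes of the brightest bin 20.1% were higher and 28.6% lower, so that both classes had a smaller share lower than their bin. Of 40 ribosome biogenesis factors 13 were higher and 3 lower (32.5% and 7.5%, beside 25.3% higher and 16.995% lower among all genes of the second bin). Their median was 0.30, and 0.19 without experimental replicate 1, 0.15 without experimental replicate 2, 0.19 without control replicate 1 and 0.11 without control replicate 2. Polr1b, the second subunit of RNA polymerase I, read 7.71 and 6.68 in experimental AECI, against 5.98 and 5.80 in control AECI. Srm, the spermidine synthase, is in none of these classes and was named after its value was seen. It read 10.1 and 9.02 against 7.22 and 7.48 and rose with a variance trend (difference 2.19, adjusted p = 0.0421).

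Sterol and fatty acid synthesis genes were higher without overlap in 15 of 32 members and lower in 6 (46.9% and 18.8%, beside 24.2% higher and 22.1% lower among all genes of the third bin), with a median of 0.36. Fads1, a fatty acid desaturase, read 8.72 and 8.88 in experimental AECI, against 7.75 and 6.99 in control AECI, and Dhcr7, which makes cholesterol from its last precursor, 9.26 and 8.59 against 8.01 and 7.59. The differences were 1.43 (SE 0.31) and 1.13 (SE 0.31), with adjusted p of 0.248 and 0.283. Mvk, mevalonate kinase, read 8.07 and 7.68 against 8.75 and 8.40, below both controls, and its second probe gave 0.35. The class median was 0.09 without control replicate 1.

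**Figure D3:**
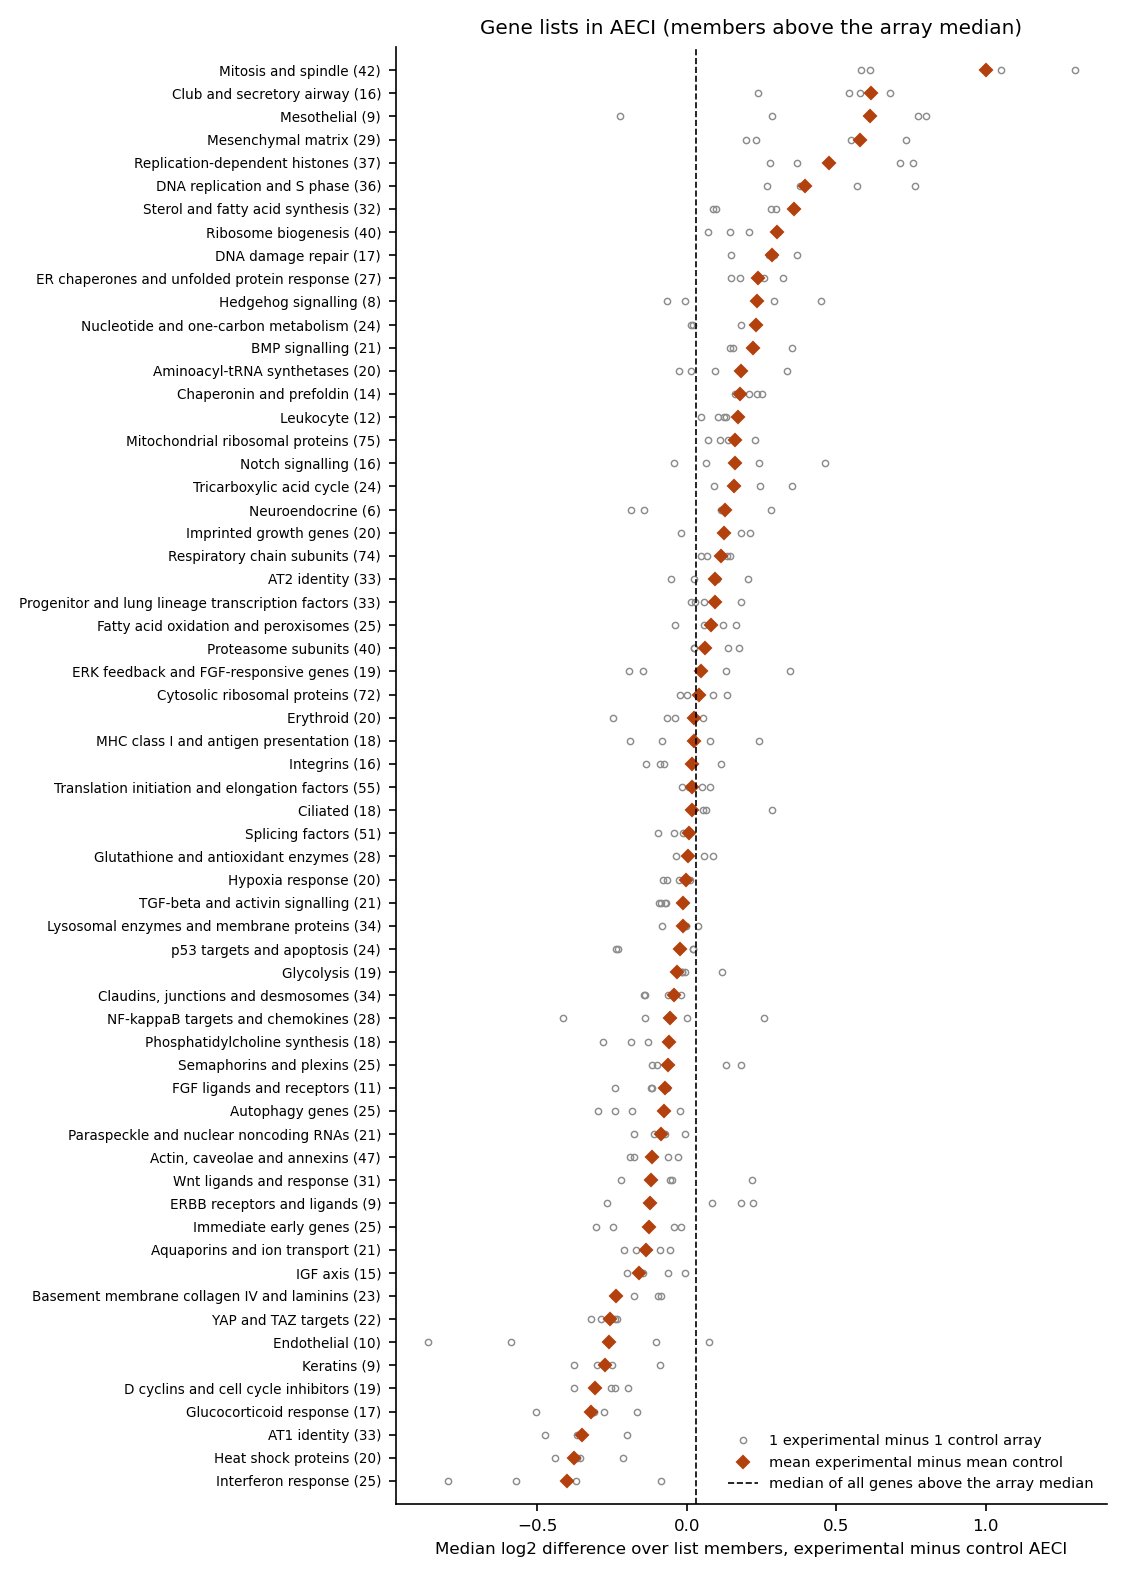
Median log2 difference, experimental minus control AECI, over the members of 62 gene lists above the median spot (number in parentheses). Diamonds are from group means, circles from the 4 pairs of 1 experimental and 1 control array, and the dashed line is the median of all genes above the median spot, 0.03. Mitosis and spindle stood highest at 1.002, and interferon response (-0.40), heat shock proteins (-0.38) and AT1 identity (-0.35) lowest.

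Fgfr2 itself read 11.1 and 11.4 in experimental AECI, against 11.03 and 11.4 in control AECI. The difference was 0.03 (SE 0.25, 95% interval -0.58 to 0.63, limma adjusted p = 0.976), and the second probe gave 0.48. A probe outside the floxed exon checks nothing, and the isoforms are not told apart by name on this array. Of the 19 genes of the ERK feedback and FGF-responsive class 3 were higher and 4 lower without overlap (15.8% and 21.1%, beside 24.2% higher and 22.1% lower among all genes of the third bin), at a median of 0.05 (array pairs -0.19 to 0.34). Etv5, an ETS factor induced by FGF, differed by 0.05 (95% interval -0.62 to 0.71), Spry2, a feedback inhibitor, by 0.13 (-0.55 to 0.81) and Dusp6, an ERK phosphatase, by -0.16 (-0.84 to 0.51).

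Some members of the class did stand apart. Spred3, an inhibitor of RAS signalling, read 10.51 and 10.7 in experimental AECI, against 9.52 and 9.25 in control AECI, and rose with a variance trend (difference 1.24, SE 0.21, adjusted p = 0.0354, or 0.232 without). Its second probe gave -0.21. Pcsk6, a proprotein convertase, read 6.79 and 7.72 against 4.66 and 5.56 with a control mean below the median spot, and gave 1.19 on its second probe. Sox9, the factor of distal tip progenitors, overlapped at 9.22 and 10.52 against 8.30 and 9.28 and gave -0.29 on its second probe. Among 11 FGF ligands and receptors the median was -0.07. Fgfr1, another FGF receptor, read 6.67 and 5.96 against 4.73 and 5.12, with controls below the median spot. Fgfrl1, a receptor without a kinase, read 10.2 and 10.4 against 10.9 and 10.6.

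Other regulators stood out singly rather than as classes. Irx3, an Iroquois factor of the lung epithelium, read 10.8 and 10.9 in experimental AECI, against 9.25 and 8.85 in control AECI. Nfix, a nuclear factor I protein, read 12.52 and 12.4 against 11.3 and 11.4 on its brightest probe, and differed by 0.08 on its second. Both rose with a variance trend, with differences of 1.78 (SE 0.23, adjusted p = 0.0147) and 1.16 (SE 0.14, adjusted p = 0.00792), against 0.217 and 0.229 without it. Irx3 differed by 2.02 in AECII as well. The imprinted pair H19, a noncoding RNA, and Igf2, a fetal growth factor, read 14.04 and 13.6 against 12.500 and 12.7 for H19 and 13.2 and 12.52 against 11.48 and 11.6 for Igf2. They rose with a variance trend too (differences 1.26 and 1.27, adjusted p = 0.0158 and 0.0271), while the imprinted class of 20 genes had a median of 0.13. Within the IGF axis, Igfbp5 read 10.7 and 10.3 against 9.75 and 9.17, and Irs1, the docking protein of the IGF receptor, differed by -0.96 (SE 0.23, adjusted p = 0.261).

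Among receptors and ligands of other pathways, Lgr6, a receptor that boosts Wnt signals, read 8.19 and 8.95 in experimental AECI, against 7.01 and 6.55 in control AECI. Fzd6, a Wnt receptor, read 7.40 and 9.28 against 10.6 and 10.8, and Erbb4, the neuregulin receptor of fetal lung epithelium, 10.8 and 11.4 against 10.2 and 9.89 with -0.49 on its second probe. None of the 3 passed with or without a variance trend, and class medians were -0.12 for Wnt, 0.16 for Notch, 0.22 for BMP and -0.12 for ERBB. The signs of Wnt and ERBB were not stable. Wnt was 0.06 without experimental replicate 2, -0.23 without control replicate 1 and -0.05 without control replicate 2. ERBB was 0.20 without experimental replicate 1 and 0.01 without experimental replicate 2. Notch and BMP stayed positive with each AECI array left out, but not on other probes. Among members whose second probe was also above the median spot, 0 of 5 Notch genes were positive there (median -0.18). For BMP 4 of 9 were positive (median -0.01). The lowest array pair for Notch was -0.04. Notch was 0.28 without experimental replicate 1, 0.08 without experimental replicate 2 and 0.27 without control replicate 1. BMP was 0.14 without control replicate 1. Cxcl16, a chemokine of alveolar epithelium, read 11.2 and 10.9 against 12.4 and 12.3 and fell with a variance trend (difference -1.31, adjusted p = 0.0116). Ccl9 and Ccl5, chemokines that recruit leukocytes, stood above the controls, Ccl9 at 7.61 and 8.32 against 4.99 and 4.37, with controls below the median spot, and Ccl5 at 8.500 and 8.48 against 7.22 and 7.39.

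Nuclear noncoding RNAs and splicing factors gave a few low members. Neat1, the scaffold of paraspeckles, read 9.16 and 9.004 in experimental AECI, against 10.48 and 10.53 in control AECI, and its second probe gave -2.02. Srsf11, a splicing factor, read 11.8 and 11.6 against 12.54 and 12.7. Both fell with a variance trend (differences -1.42 and -0.93, adjusted p = 0.0158 and 0.0199), and differed by -2.09 and -0.77 in AECII. The classes as such were at -0.09 (21 noncoding RNAs) and 0.01 (51 splicing factors). Of the genes past the threshold with the trend, 3 more were named after their values were seen. Kdm5b, a demethylase of histone H3 lysine, read 8.55 and 8.76 against 9.79 and 10.3, but differed by -0.06 on its second probe. Setd5, of the SET domain family, differed by -1.75. Tet3, which oxidises methylated DNA, read 9.71 and 10.2 against 8.81 and 8.48, with -0.13 on its second probe.

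Interferon response genes had the lowest class median, -0.40, and AECI control replicate 1 stood apart in it. Of 25 members 9 were lower and 0 higher without overlap (36.0% and 0.0%, beside 25.3% higher and 16.995% lower among all genes of the second bin). Ddx58 (RIG-I), a sensor of viral RNA, read 8.25 and 7.49 in experimental AECI, against 9.19 and 9.60 in control AECI. Irf7, the factor that amplifies the response, read 6.30 and 6.46 against 8.22 and 7.55. The median deviation of the class was -0.37 and -0.02 on the experimental arrays, against 0.54 in control replicate 1 and -0.07 in control replicate 2. The median difference was -0.16 without experimental replicate 1, -0.65 without experimental replicate 2, -0.20 without control replicate 1 and -0.71 without control replicate 2.

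**Figure D4:**
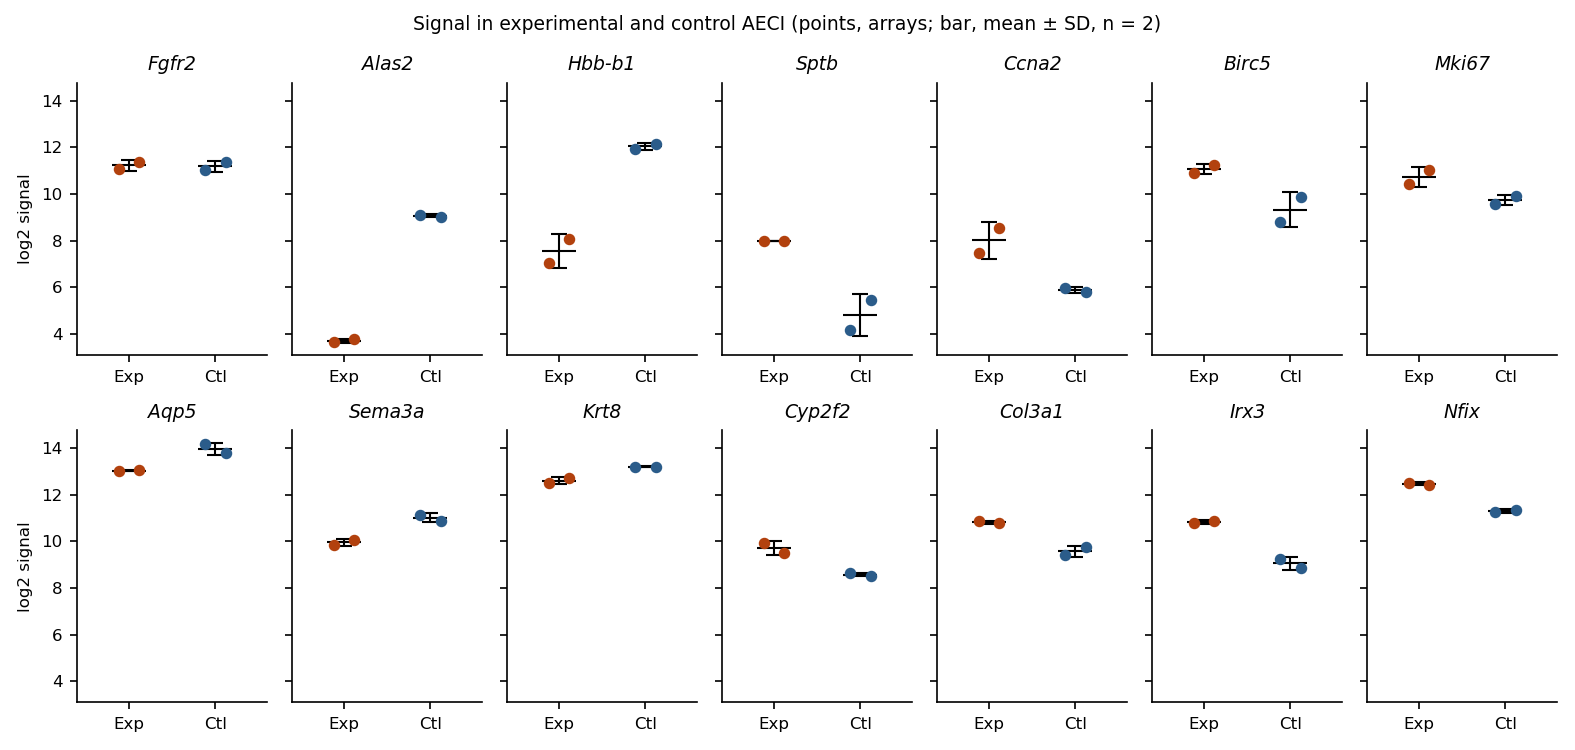
Log2 signal of 14 genes in experimental (orange, left) and control AECI (blue, right), with points for arrays and the bar for the mean ± SD (n = 2). Alas2 stood at 3.64 and 3.77 in experimental AECI, against 9.11 and 9.03 in control AECI, while the groups overlapped for Fgfr2.

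Alas2, the erythroid form of the first enzyme of heme synthesis, read 3.64 and 3.77 in experimental AECI, against 9.11 and 9.03 in control AECI. The difference was -5.36 (SE 0.22, 95% interval -5.89 to -4.83, limma adjusted p = 0.00428). Both experimental values lay below the median spot, so that the interval covers the spread of arrays and not the uncertainty of a dim reading. In AECII the difference was -3.16 (adjusted p = 0.11). The call in AECI was lost when any 1 of the 8 arrays of the fit was left out, with 0 genes past the threshold each time (limma, 2556 to 3690 genes at an unadjusted p under 0.05). The adult globins followed: Hbb-b1 read 7.05 and 8.08 against 11.9 and 12.2, Hba-a1 10.54 and 11.8 against 14.8 and 15.1 and Hba-a2 7.71 and 9.38 against 12.6 and 13.1. With Hbb-b2 and Hbb-bt, these 5 globins fell with a variance trend (differences -4.49, -3.79, -4.32, -3.67 and -3.48, adjusted p between 0.0006 and 0.00634, against 0.217 for each without). The copies of a globin are nearly identical, and probes may read several of them.

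The 200 bases before the start of Alas2 are shown because they hold the elements that erythroid promoters are known for. The GATA element, searched as AGATAA on both strands, is in capitals. So is the CACCC element, searched as CCACCC on both strands, with overlapping copies counted.
Alas2, chrX:150547217-150547416: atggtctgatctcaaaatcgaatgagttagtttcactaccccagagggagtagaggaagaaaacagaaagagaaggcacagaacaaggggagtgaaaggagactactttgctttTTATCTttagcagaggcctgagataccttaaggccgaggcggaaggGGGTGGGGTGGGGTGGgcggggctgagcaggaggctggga
This window held 1 GATA element and 3 CACCC elements. Of all 27020 promoters 7.98% held the first and 23.7% the second, and of 12 matched erythroid genes 3 held the first and 8 the second.

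Over the 20 erythroid members above the median spot (32 on the array), Alas2 and the 5 globins included, 5 were higher and 7 lower without overlap (beside 24.2% higher and 22.1% lower among all genes of the third bin). Those 6 genes and Slc25a37 were the 7 lower ones. No direction is given for the class: its median was 0.02, but -0.60 over members above the upper quartile of spots, -0.13 on second probes, -0.09 on centred arrays and -0.21 over all 32 members, and 0.11 without experimental replicate 1, -0.06 without experimental replicate 2, -0.04 without control replicate 1 and -0.27 without control replicate 2. Sptb, the β spectrin of the red cell membrane, read 7.998 and 7.99 in experimental AECI, against 4.18 and 5.44 in control AECI with a control mean below the median spot, and rose with a variance trend (difference 3.18, SE 0.48, adjusted p = 0.0206). Its second probe gave 1.11. Tfrc, the transferrin receptor that cycling cells also carry, read 11.3 and 11.4 against 10.3 and 10.46 and rose with the trend (difference 0.96, adjusted p = 0.0232). Slc25a37, the iron importer of erythroid mitochondria, was lower at 8.76 and 8.77 against 9.54 and 9.74. Tfrc and Slc25a37 were named after their values were seen. In bulk samples, fewer cells of a type and less RNA per cell cannot be told apart.

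Markers of some neighbouring cell types also differed between the groups, and their part in the other results was not tested. The 5 erythroid markers had a mean of 6.79 and 7.84 in experimental AECI, against 10.99 and 10.98 in control AECI. Mesenchymal markers (4 of 4 above the median spot) averaged 10.6 and 10.7 in experimental AECI, against 9.32 and 10.2 in control AECI, and club cell markers (3 of 3) 11.1 and 11.7 against 10.39 and 10.49. Ciliated markers (2 of 4) averaged 5.40 and 6.21 against 4.42 and 3.503. Mesothelial markers (3 of 3) overlapped, at 9.65 and 9.40 against 9.54 and 9.43. Of 26 leukocyte genes 12 were above the median spot, with 5 higher and 0 lower without overlap (41.7% and 0.0%). Among all genes of the second bin 25.3% were higher and 16.995% lower. The leukocyte median was 0.17. Endothelial markers (2 of 3) averaged 5.003 and 5.08 against 5.26 and 5.92, with both experimental averages below the median spot. No direction is given for the endothelial class. Its median was -0.26, but 0.07 without control replicate 2, and its array pairs ran from -0.87 to 0.07.

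Mesenchymal matrix genes were higher without overlap in 10 of 29 members and lower in 3 (34.5% and 10.3%, beside 24.2% higher and 22.1% lower among all genes of the third bin), at a median of 0.58. Col3a1, a fibrillar collagen, read 10.9 and 10.8 in experimental AECI, against 9.40 and 9.75 in control AECI, and Fbn1, the fibrillin of microfibrils, 10.47 and 10.4 against 9.24 and 8.51. Both rose with a variance trend, with differences of 1.25 (SE 0.22, adjusted p = 0.0389) and 1.57 (SE 0.28, adjusted p = 0.0418). The second probe gave -0.56 for Col3a1 and 0.50 for Fbn1. Postn and Col1a1 differed by 1.17 and 1.02 without passing. The class median was 0.26 without experimental replicate 2 and 0.33 without control replicate 1.

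Of 16 club and secretory airway genes 12 were higher and 1 lower without overlap (beside 24.2% higher and 22.1% lower among all genes of the third bin), at a median of 0.62. The array pairs gave 0.24 to 0.68, and the median was 0.45 without control replicate 1. Cyp2f2, a cytochrome of club cells, read 9.93 and 9.52 in experimental AECI, against 8.62 and 8.53 in control AECI, and rose with a variance trend (difference 1.15, SE 0.20, adjusted p = 0.0418). Scgb3a1, a secretoglobin, read 9.34 and 9.49 against 8.27 and 8.04, and Scgb1a1, the main club cell secretion, 11.6 and 12.9 against 11.2 and 11.4. Foxj1, the regulator of motile cilia, read 7.06 and 7.48 against 5.19 and 5.88, a difference of 1.73 (SE 0.41, adjusted p = 0.26). The 18 ciliated genes above the median spot had a median of 0.02.

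Among the remaining genes of smallest p, Ppp2r2c, a regulatory subunit of protein phosphatase 2A, read 7.54 and 8.42 in experimental AECI, against 3.96 and 2.15 in control AECI. Uxs1, which makes UDP-xylose for proteoglycan chains, read 5.30 and 5.65 against 8.35 and 8.33 on its brightest probe, and differed by -0.57 on its second. Ppp2r2c rose and Uxs1 fell with a variance trend (differences 4.92 and -2.86, adjusted p = 0.0158 and 0.00934), and in AECII they differed by 0.41 and 0.23. The controls of Ppp2r2c lay below the median spot. Timm8a1, an import chaperone of the mitochondrial intermembrane space, read 9.24 and 9.25 against 7.17 and 7.81, a difference of 1.76 (adjusted p = 0.0158 with the trend). Pfkfb3, which sets glycolytic flux, read 10.3 and 10.2 against 11.49 and 11.2 (difference -1.12, adjusted p = 0.043 with the trend), while 19 glycolytic genes had a median of -0.03.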

How the data were processed

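RNA of FACS-sorted AECI and AECII was labelled and hybridised to single-colour arrays, with 8 arrays in 4 groups of 2. The deposited table holds log2 signals of 62976 spots, which the authors had normalized between arrays. Per the submitters' processing notes they used limma, version not given. No source states the base of the logarithm, which was taken as 2 because values span 1.34 to 15.995. Background correction is not given in the sources used here. Of the spots 43941 had 1 gene symbol (33704 named by accession) and 19035 had none and were left out. A gene's value is that of its brightest probe over the 8 arrays.

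A model of 4 group means was fitted to all 24306 genes with limma 3.58.1 in R 4.3.3, without a variance trend, and p-values were adjusted by Benjamini-Hochberg (threshold 0.05, 95% intervals, 4 residual and 2.26 prior degrees of freedom). An exact permutation of 2 against 2 arrays cannot go below p = 0.33. The script was tested on simulated data. Tables and plots were made in Python 3.11.15 with numpy 2.4.6, pandas 2.3.3 and matplotlib 3.10.9.

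The genes named were Fgfr2, every gene past the threshold, the 12 higher and 12 lower genes of smallest p among non-overlapping genes above the median spot, up to 4 members of smallest p in each of 62 lists, and a set of known markers, of which the text uses a part. The genes and lists were chosen with earlier results of these data known. Alternatives were a variance trend, a robust prior, AECI alone, array weights, other probes, other scalings, a filter on dim genes, a covariate for the male pattern, a replicate block and leaving out each array. Promoters are from RefSeq, build GRCm38.p6. A result for 1 AECI marker is not reported here.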

Additional observations from a re-analysis of the deposited data

How the results depend on the processing

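The number of arrays limits precision, since each group held 2. The count of genes called was 1 in the fit as reported, with a robust prior, array weights, the mean of probes, centred arrays, quantile normalization and a replicate block. It was 74 with a variance trend (40 higher, 34 lower), 74 over genes above the median spot with that trend (38 higher, 36 lower, an alternative chosen after seeing the data), and 2 over those genes without it. It was 0 by limma with AECI alone (1858 genes at an unadjusted p under 0.05), the second brightest probe (1389 of 11040 genes), a male pattern covariate (3007) or both male pattern arrays left out (3164), and 0 to 0 when each array was left out. Replicate numbers did not pair the samples (r = -0.038 in AECI and 0.009 in AECII between deviations of same-numbered arrays), and the replicate block changed no count.

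Class medians kept their direction in most settings. With members above the upper quartile of spots they were -0.0963 for ERK feedback, 0.223 for DNA replication, 0.53 for mitosis and -0.596 for erythroid genes. With the second brightest probe they were 0.242 for DNA replication, 0.338 for mitosis, 0.185 for the proteasome, -0.514 for AT1 identity, -0.0975 for basement membrane and -0.127 for erythroid genes. With centred arrays they were -0.078 for cytosolic ribosomal proteins, -0.0562 for the proteasome, -0.00243 for the respiratory chain, -0.469 for AT1 identity, -0.0239 for AT2 identity, -0.354 for basement membrane and -0.0931 for erythroid genes. The respiratory chain gave 0.0625 with the mean of probes, 0.145 with quantile normalization, 0.0816 with a male pattern covariate and 0.0739 without both male pattern arrays, which gave -0.264 for AT1 identity. Erythroid genes gave -0.153 with the mean of probes and -0.215 over all measured members.

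Leaving out each array gave -0.131 to 0.148 for ERK feedback, 0.319 to 0.565 for DNA replication, 0.724 to 1.16 for mitosis, 0.0739 to 0.147 for the respiratory chain, -0.433 to -0.264 for AT1 identity, 0.00456 to 0.195 for AT2 identity, -0.251 to -0.0940 for basement membrane and -0.266 to 0.110 for erythroid genes.

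Of 103 named genes, 12 changed sign in some setting, and the cause was not tested. The second brightest probe gave -0.561 for Col3a1, -1.18 for Dut, -0.494 for Erbb4, 0.346 for Mvk, -0.293 for Sox9, -0.215 for Spred3 and -0.130 for Tet3, and the mean of probes -0.0533 for Col3a1 and -0.0632 for Dut. Centred arrays gave -0.0705 for Etv5, -0.0889 for Fgfr2, -0.0658 for Sftpb and -0.0467 for Sftpc. A male pattern covariate gave -0.0498 for Fgfr2 and -0.157 for Sftpb, and leaving out both male pattern arrays -0.141 and -0.235. With each array left out, Etv5 gave -0.110 to 0.204, Fgfr2 -0.141 to 0.198, Sftpb -0.235 to 0.339, Sftpc -0.0176 to 0.159 and Spry2 -0.0528 to 0.311. Over all named genes and settings 1944 values kept their direction and side of the threshold, 31 newly passed it, 11 no longer passed it and 25 changed sign.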
